A study of Apis mellifera with 10 samples.

Results

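SIFR and Crzr are the honey bee (Apis mellifera) genes for the SIFamide receptor and the corazonin receptor, 2 of the 12332 bee genes counted in antennal RNA. They were taken by symbol from the RefSeq gene table of the assembly Amel_HAv3.1 and matched to the count rows by chromosome, start and end. This rule uses no measured value, but the members were chosen with earlier results of these data known. Antennae came from adult bees that had been injected as embryos with a CRISPR ribonucleoprotein against orco (orco_KO, 5 libraries, numbered 3, 5, 9, 11 and 12) or with injection buffer alone (control, 5 libraries, numbered 3, 4, 5, 6 and 7). All bees were raised in the laboratory and dissected no later than 24 hours after leaving the pupal cuticle. Because the complex was injected into embryos, an injected bee can be a mosaic of edited and unedited cells, and the labels do not state whether a library is 1 bee or a pool. The p-values therefore measure the spread between these libraries.

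Both receptors belong to the large family of G protein coupled receptors, membrane proteins that bind a ligand outside the cell and switch on G proteins inside it. SIFamide is a neuropeptide made by a small group of brain neurons in insects, and in Drosophila it and its receptor act in feeding, sleep and courtship. Corazonin is a peptide related to adipokinetic hormone and, more distantly, to vertebrate gonadotropin-releasing hormone. It is known for roles in stress and metabolism, for cuticle colour in locusts and for worker behaviour in ants. Orco is the coreceptor with which insect odorant receptors form ion channels in olfactory neurons of the antenna.

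SIFR lies on linkage group 12, from 705846 to 781537 (Amel_HAv3.1, forward strand), and spans 75.7 kb. Crzr lies on linkage group 1, from 10198903 to 10212094, also on the forward strand, and spans 13.2 kb. Reads were counted over the whole gene span, introns included, and only on the annotated strand. Totals on bee genes ranged from 8577416 to 18308425 in orco_KO libraries and from 9497211 to 23453690 in control libraries. The target gene, which carries the symbol Or2, averaged 22.9 ± 9.33 CPM in orco_KO and 382 ± 82.6 CPM in controls (SD, n = 5 each), with no overlap between the groups. CPM are counts scaled to a common total of bee-gene reads per library, after TMM normalization. For several neuronal genes, brp among them, controls 6 and 7 differed from controls 3, 4 and 5, so values are also given without this pair where it matters.

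SIFR was lower in every orco_KO library than in any control. It stood at 66.1, 63.7, 62.5, 47.0 and 47.9 CPM in orco_KO replicates 3, 5, 9, 11 and 12. In control replicates 3, 4, 5, 6 and 7 it stood at 176, 120, 155, 181 and 206 CPM. The highest orco_KO library thus stayed well below the lowest control, replicate 4. The means were 57.4 ± 9.23 CPM in orco_KO and 168 ± 32.2 CPM in controls (SD, n = 5 each), and the SD was 16.1% of the mean in orco_KO and 19.2% in controls. The log2 fold change of orco_KO over control was -1.55 (SE 0.174; adjusted p = 4.3e-05, from edgeR over the 9222 genes that passed its filter on low counts), a 2.92-fold lower level. It was -1.39 without control replicates 6 and 7 (adjusted p = 1.7e-04). An exact permutation test of the CPM gave a two-sided p of 0.00794, the smallest that 5 libraries against 5 allow.

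Crzr had higher values in most orco_KO libraries, but the groups overlapped and the gene did not pass the test. It stood at 18.3, 14.4, 20.7, 50.7 and 23.2 CPM in orco_KO replicates 3, 5, 9, 11 and 12. In control replicates 3, 4, 5, 6 and 7 it stood at 20.4, 8.44, 19.9, 5.75 and 9.27 CPM. Of the orco_KO libraries 3 lay above all controls, while replicates 3 and 5 lay within the control range, whose upper end came from control replicates 3 and 5. The means were 25.4 ± 14.5 CPM in orco_KO and 12.8 ± 6.89 CPM in controls (SD, n = 5 each). Its log2 fold change came to 1.02 (SE 0.393; adjusted p = 0.113 in edgeR), and the exact permutation test of the CPM gave a two-sided p of 0.0714. Without orco_KO replicate 11 the log2 fold change was 0.61 (adjusted p = 0.299), and without control replicates 6 and 7 together it was 0.67 (adjusted p = 0.376). These values rest on 100 to 496 Crzr reads per orco_KO library and 131 to 292 per control library, against 443 to 1212 and 1311 to 6120 SIFR reads.

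**Figure D1:**
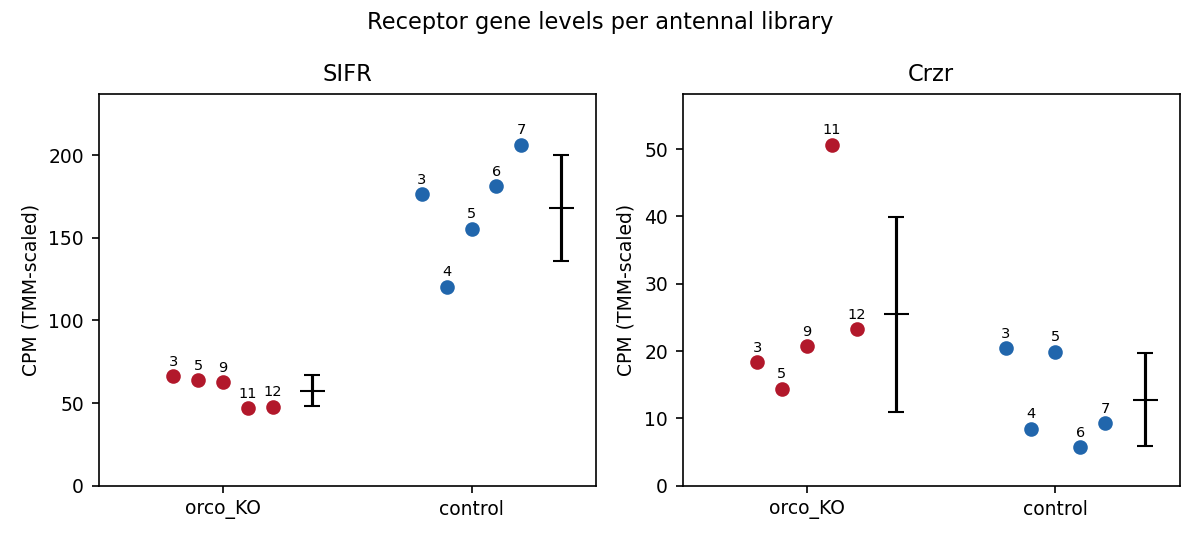
Levels of SIFR (left) and Crzr (right) in CPM, 1 point per library with its replicate number, orco_KO in red and control in blue; black bars are mean ± SD of 5 libraries. All 5 orco_KO libraries lie below all controls for SIFR, while for Crzr the groups overlap and orco_KO replicate 11 stands highest at 50.7 CPM.

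Across all 9222 tested genes 7.98% were called lower and 4.57% higher in orco_KO at an adjusted p below 0.05. All orco_KO libraries lay below all controls in 7.45% of tested genes, as for SIFR, and above them in 3.76%. For SIFR, 3.45% of tested genes had a lower log2 fold change. For Crzr, 3.05% of tested genes had a higher log2 fold change. The median over all tested genes was -0.06 on the log2 scale, and that of the genes called lower was -1.36. Among long genes, for which introns make up much of the counted span, both directions were called above their share over all tested genes. Of 397 tested genes spanning 50 to 100 kb, 54 (13.6%) were lower and 62 (15.6%) higher, with a median log2 fold change of 0.23. Of 1022 genes spanning 10 to 20 kb, the class of Crzr, 99 (9.69%) were lower and 83 (8.12%) higher, with a median of 0.07.

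The ratio of the 2 receptors within a library, which needs no scaling between libraries, also separated the groups. SIFR gave 3.61, 4.43, 3.02, 0.927 and 2.06 reads per Crzr read in orco_KO replicates 3, 5, 9, 11 and 12. In control replicates 3, 4, 5, 6 and 7 it gave 8.62, 14.3, 7.81, 31.5 and 22.3 reads per Crzr read. Every orco_KO library lay below every control. The mean log2 ratio was 1.30 ± 0.887 in orco_KO and 3.87 ± 0.865 in controls (SD, n = 5 each; pseudocount 0.5), a difference of -2.56 or a 5.92-fold lower ratio (two-sided exact permutation p = 0.00794, the smallest possible here). Without control replicates 6 and 7 the difference was -1.99 and the ratio 3.99-fold lower (two-sided exact permutation p = 0.0357, the smallest for 5 against 3). The CPM of SIFR alone had separated the groups at the same exact permutation p of 0.00794, so the ratio is not independent of that result. Its size also includes the shift of Crzr, which did not pass the test (log2 fold change 1.02, edgeR adjusted p = 0.113). Per kb of gene span, the SIFR level was above that of Crzr in each of the 5 control libraries and below it in each of the 5 orco_KO libraries. Mean levels per kb were 0.759 CPM for SIFR and 1.93 CPM for Crzr in orco_KO, and 2.22 and 0.967 CPM in controls. Since introns count, these levels are not those of spliced transcripts.

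Most markers of neurons, like SIFR, were lower in orco_KO than in controls. The counts of calls below stand beside 7.98% of all tested genes called lower and 4.57% called higher. Of the 6 matched neuron markers 5 fell (Nrx-1, brp, Cac, Para and Syt1), and the sixth, Syx1A, was at 945 CPM in orco_KO and 916 CPM in controls. Their summed level ranged from 3378 to 5098 CPM in orco_KO and from 6330 to 15960 CPM in controls, and none was at 0. Of 29 tested odorant receptors other than Or2, 21 fell, and the summed level of all 34 matched was 47.0 to 106 CPM in orco_KO and 141 to 178 CPM in controls. That list holds only receptors whose symbol or synonym is Or with a number, so receptors without one are not in it. The only glial marker matched, Eaat-2, was at 0.232 to 1.60 CPM in orco_KO and 6.24 to 9.14 CPM in controls. Of 8 muscle markers Argk fell and TpnT rose, 6 had positive log2 fold changes, and 4 were higher at an unadjusted p below 0.05. Their sums were 2641 to 6880 CPM in orco_KO and 1981 to 4001 CPM in controls. The call of TpnT was lost in 6 of 10 fits that left out 1 library, where the adjusted p in edgeR reached 0.0850, and with control replicates 6 and 7 both left out (adjusted p = 0.121). Of 2 tested fat body genes none passed (edgeR; at an unadjusted p below 0.05, 1 was higher), with sums of 20.6 to 82.9 CPM in orco_KO and 5.33 to 98.5 CPM in controls. Of the 2 tested eye markers Blop rose (log2 fold change 1.57, edgeR adjusted p = 0.0188), a call lost with control replicates 6 and 7 both left out (1.25, adjusted p = 0.104). The part of these cell types in the change of SIFR was not tested, and in bulk antennae fewer cells of a type and less RNA per cell cannot be told apart.

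SIFR and Crzr were also set against the neuron markers within each library. This is given as a description, and its permutation p-values are left out, since 5 of the 6 markers had themselves fallen. Their log2 fold changes included -2.01 for Nrx-1, -1.90 for brp, -1.62 for Cac and -1.39 for Para, and every such ratio carries that fall. The log2 count of SIFR minus the mean log2 count of the 6 neuron markers was -3.09 ± 0.267 in orco_KO and -2.80 ± 0.657 in controls (SD, n = 5 each), a difference of -0.29. The control libraries split here: replicates 6 and 7 were at -2.20 and -1.97, and replicates 3, 4 and 5 between -3.33 and -3.23, within the orco_KO range of -3.33 to -2.72. Without control replicates 6 and 7 the difference was 0.18, so its sign rests on these libraries. SIFR itself was highest in control replicates 6 and 7, whereas brp, a gene of the synaptic active zone, was at 1402 and 1138 CPM there, against 3738 to 7348 CPM in control replicates 3, 4 and 5. For Crzr the same measure was -4.40 ± 0.806 in orco_KO and -6.67 ± 0.423 in controls, a difference of 2.27, and 2.18 without control replicates 6 and 7. That difference includes the fall of the markers, and in CPM the groups overlapped for Crzr. Both ratios to neuron markers were added after the data had been seen.

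**Figure D2:**
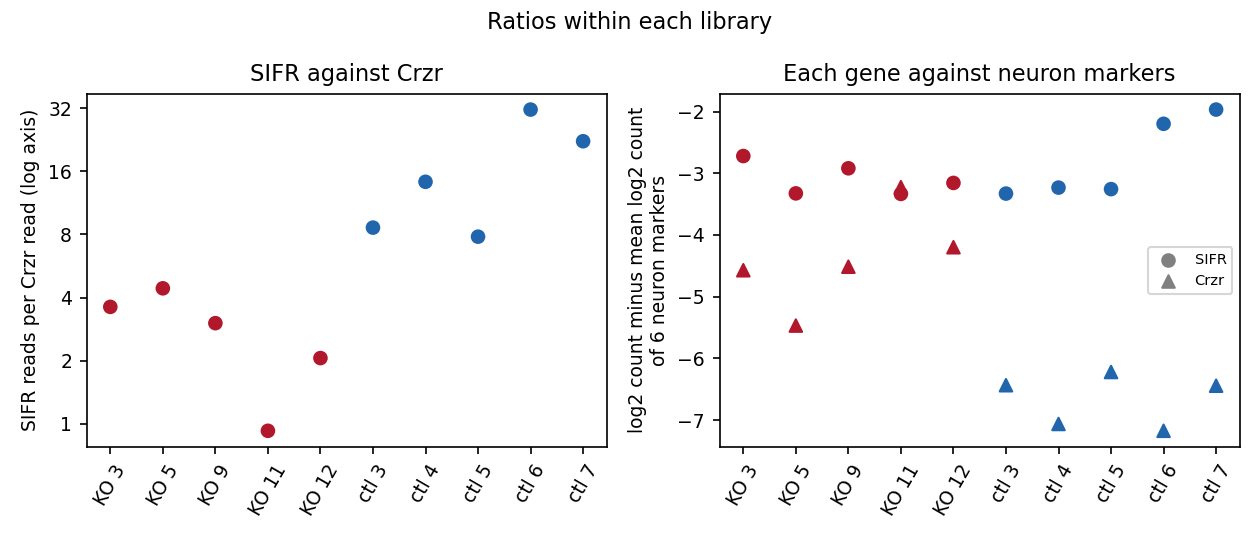
Left, SIFR reads per Crzr read on a log axis; right, log2 count of SIFR (circles) and Crzr (triangles) minus the mean log2 count of 6 neuron markers; 1 point per library, orco_KO (KO, red) and control (ctl, blue). The SIFR to Crzr ratio is at most 4.43 in orco_KO libraries and at least 7.81 in controls; the right panel includes the fall of 5 of the 6 markers in orco_KO.

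Genes next to SIFR did not move as a block. LOC413210, which ends 19498 bases before SIFR on the same strand, rose to 30.0 ± 5.43 CPM in orco_KO, against 17.6 ± 4.60 CPM in controls (SD, n = 5 each; log2 fold change 0.77, edgeR adjusted p = 0.0217). That call was lost in 4 of the 10 fits that left out 1 library, where the adjusted p reached 0.0544. It was also lost with both control replicates 6 and 7 left out (adjusted p = 0.0621) and with library totals in place of TMM (adjusted p = 0.0656). LOC100577755, which starts 1969 bases after the end of SIFR on the same strand, fell almost to no reads. Its orco_KO libraries held 0, 2, 2, 1 and 0 reads in replicates 3, 5, 9, 11 and 12, and the controls held 35 to 70. Its log2 fold change was -5.03 (SE 0.660; edgeR adjusted p = 1.5e-04). The gene table gives no function for either.

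Some annotated genes share the span of SIFR or Crzr. LOC107965367, 2281 bases long, lies wholly inside SIFR on the same strand, and reads there fit both genes and are left out of both counts. Its count of 0 in every library is therefore fixed by the counting and says nothing of its level, and 3.01% of the SIFR span is lost to counting. On the opposite strand the long noncoding RNA genes LOC113219165 and LOC102654686 lie inside SIFR, with 6 and 12 reads over all orco_KO libraries and 4 and 36 over all controls. Crzr has no neighbour on its strand that overlaps it. LOC102654114, inside Crzr on the opposite strand, had 1 read in all orco_KO libraries and 4 in all controls. The nearest genes around Crzr, LOC412813 before it and LOC408600 after it, had log2 fold changes of 0.36 and -0.05 and did not pass the test.

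**Figure D3:**
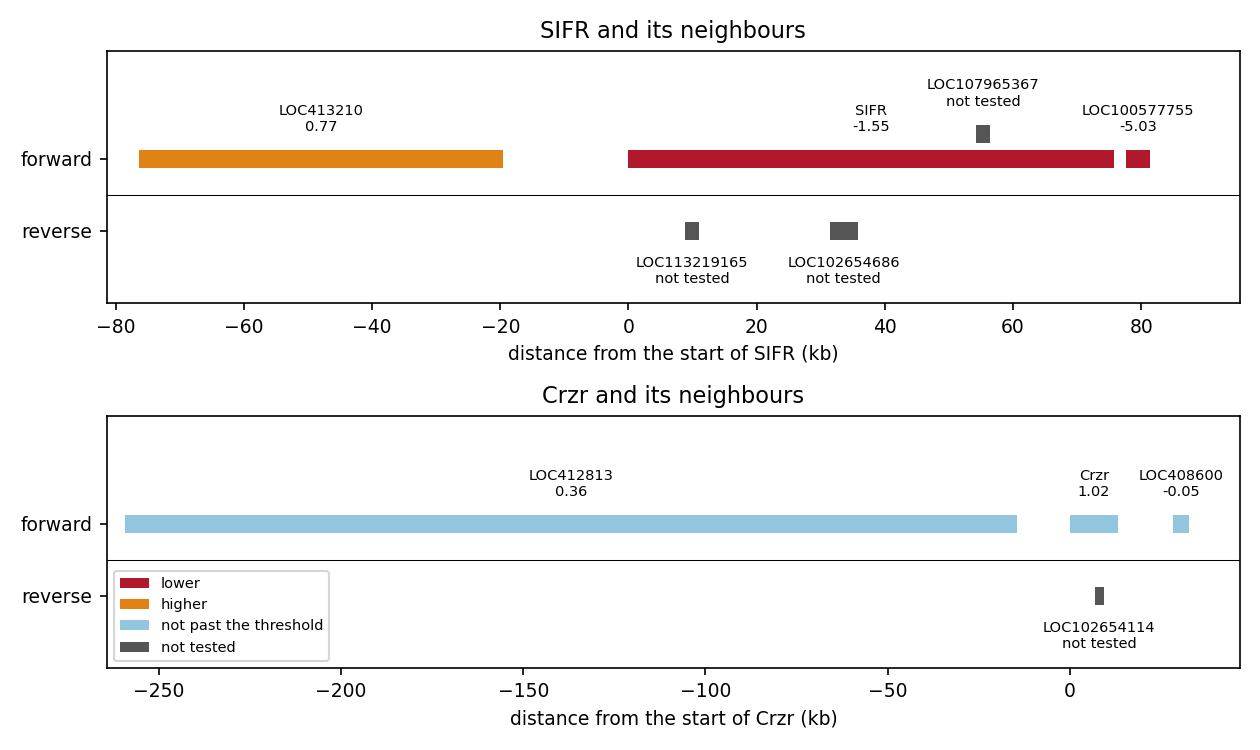
Annotated spans of SIFR (top) and Crzr (bottom) with overlapping and nearest genes by strand, in kb from the start of each receptor gene; the number under a name is its log2 fold change of orco_KO over control, and colour gives the call. SIFR (-1.55) lies between LOC413210 (0.77) and LOC100577755 (-5.03), while no gene around Crzr passed the test.

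Few other genes of peptide signalling could be set beside the receptors. Of 12 neuropeptide and peptide receptor genes with a matching symbol, 5 passed the filter on low counts. SIFR fell, no gene rose and the other 4 were not called, with a median log2 fold change of 0.27. So few genes cannot be set apart from the 7.98% called lower and 4.57% called higher over all tested genes. At an unadjusted p below 0.05, Crzr was also counted, as higher. InR-2, an insulin receptor gene, averaged 369 ± 52.8 CPM in orco_KO and 305 ± 126 CPM in controls (SD, n = 5 each). Its log2 fold change was 0.27 (edgeR adjusted p = 0.526), and -0.04 without control replicates 6 and 7. Tk, the precursor of the tachykinins, averaged 8.46 ± 1.09 CPM in orco_KO and 6.93 ± 1.11 CPM in controls (log2 fold change 0.29, edgeR adjusted p = 0.357). NPF, the precursor of neuropeptide F, averaged 1.80 ± 0.738 CPM in orco_KO and 2.18 ± 2.19 CPM in controls, where replicate 3 alone held 5.78 CPM, and its log2 fold change of -0.20 was 0.54 without that library.

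No read of the gene for the peptide that Crzr binds was counted in these antennae. Crz, the corazonin precursor gene, had no read in any of the 10 libraries, which allows up to 0.431 CPM in an orco_KO library and 0.403 CPM in a control when 3 counts are taken as the limit. That limit covers counting error only. No gene matched the symbols searched for the SIFamide precursor, so the gene for the peptide that SIFR binds was not examined. Akhr, the adipokinetic hormone receptor gene related to Crzr, did not pass the filter: it had 1, 0, 5, 1 and 0 reads in orco_KO replicates 3, 5, 9, 11 and 12, and 15, 2, 20, 3 and 1 reads in control replicates 3, 4, 5, 6 and 7. The hormone genes Eth, Burs, Pburs, Pban and ILP-2 averaged between 0.0867 and 0.420 CPM in orco_KO and between 0.108 and 0.387 CPM in controls. crh-BP, named for a binding protein of corticotropin-releasing hormone in vertebrates and chosen after its values were seen, was at 0.569 ± 0.393 CPM in orco_KO and 1.58 ± 0.381 CPM in controls (edgeR adjusted p = 0.0586). The allatostatin A precursor gene Apime-ASTA, also added late, had 3 reads over all orco_KO libraries and 9 over all controls.

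Receptors of biogenic amines are G protein coupled receptors like SIFR and Crzr. Of 9 tested, 1 was called lower, a number too small to set apart from the 7.98% called lower over all tested genes. This gene, Oa1, an octopamine receptor gene, fell to 10.6 ± 3.74 CPM in orco_KO, against 34.0 ± 17.3 CPM in controls (SD, n = 5 each; log2 fold change -1.69, edgeR adjusted p = 0.00901). None of the other 8 was called. The family's median log2 fold change was 0.35, and 7 of 9 values were positive, among them those of 5-HT2alpha at 0.90 and 5-ht7 at 0.84, both serotonin receptor genes, and Dop1, a dopamine receptor gene, at 0.63. The value of 5-ht7 missed the threshold in edgeR (adjusted p = 0.0598) and passed it in DESeq2 (adjusted p = 0.0216). Leaving out both control replicates 6 and 7 gave it a log2 fold change of 0.58 (edgeR adjusted p = 0.249). Unlike SIFR, Oa1 had only 2 of 5 orco_KO libraries below all controls, as control replicate 7 held 9.20 CPM, within the orco_KO range. Against control replicates 6 and 7 alone, Oa1 was at -0.77 (edgeR adjusted p = 0.163), and without this pair at -2.09 (edgeR adjusted p = 1.2e-04). Per kb of gene span, the mean of SIFR in controls, 2.22 ± 0.425 CPM, was above those of all 9 amine receptors, the next being Oa1 at 2.09 ± 1.06 CPM, which does not differ from it beyond their spread. In orco_KO, Crzr at 1.93 ± 1.10 CPM per kb was above SIFR at 0.759 ± 0.122 CPM per kb, and Oa1 followed at 0.648 ± 0.229 CPM per kb.

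Of 4 signalling genes downstream of G proteins, 2 fell and 2 did not pass the test, with a median log2 fold change of -0.63. Over all tested genes 7.98% were called lower and 4.57% higher. Camkii, the calcium/calmodulin-dependent kinase II gene, averaged 1035 ± 166 CPM in orco_KO and 1906 ± 509 CPM in controls (SD, n = 5 each; log2 fold change -0.88, edgeR adjusted p = 0.0114). Pkc, a protein kinase C gene, averaged 217 ± 29.6 CPM in orco_KO and 420 ± 186 CPM in controls (log2 fold change -0.96, edgeR adjusted p = 0.0301), a call lost in 6 of 10 fits that left out 1 library, with an adjusted p up to 0.0850. Against control replicates 6 and 7 alone, Camkii was at -0.44 (edgeR adjusted p = 0.0809) and Pkc at -0.12 (edgeR adjusted p = 0.636). Without this pair Camkii was at -1.10 (edgeR adjusted p = 0.00104) and Pkc at -1.32 (edgeR adjusted p = 2.7e-04). For, the cGMP-dependent kinase gene known for foraging behaviour, had a log2 fold change of -0.39, and Ac3, an adenylyl cyclase gene, one of 0.22.

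**Figure D4:**
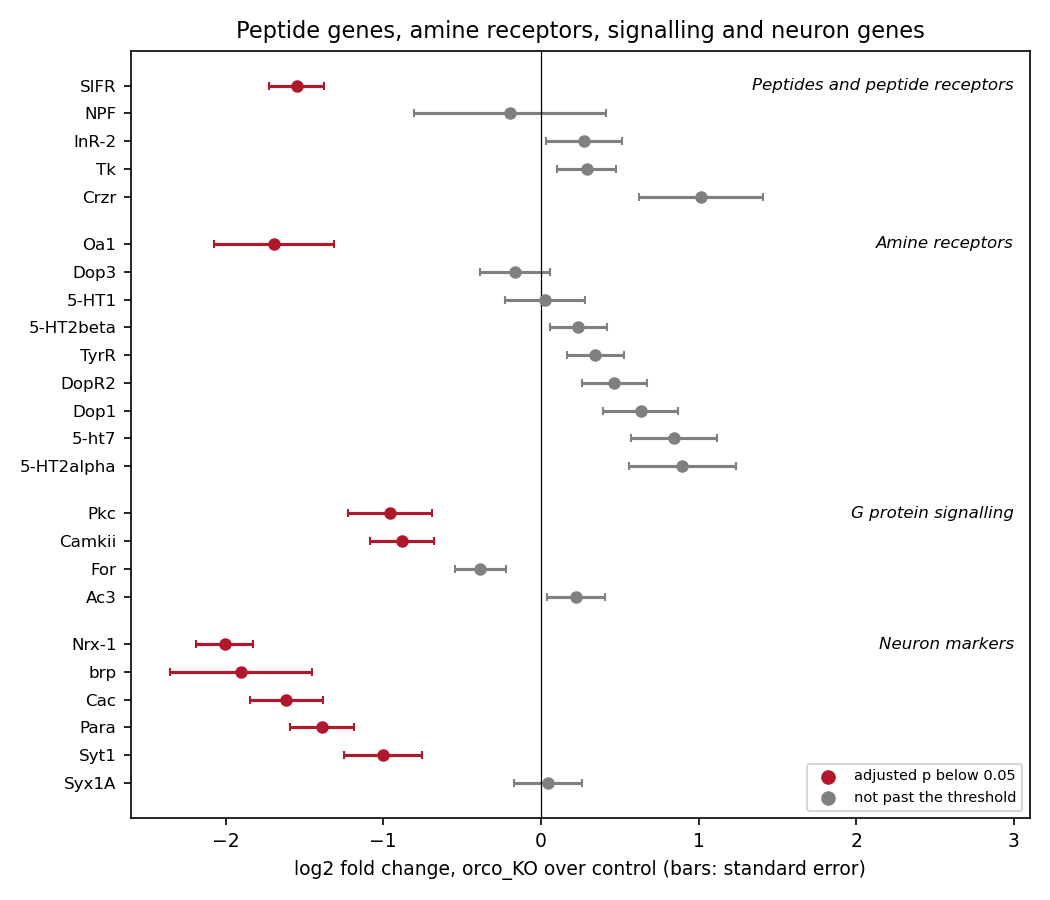
Log2 fold change of orco_KO over control (x axis, bars are standard errors of the edgeR fit) for the tested genes of 4 lists, red where the adjusted p is below 0.05. SIFR at -1.55 lies among the neuron markers, of which 5 of 6 fell, and Crzr at 1.02 is the highest value in the plot.

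The genes whose pattern was most like that of SIFR were, among 332 genes that carry a symbol beyond an LOC number, pHCl, Or2, Or109, Nrx-1 and Rep. Likeness was taken as Pearson's r of log2 CPM over the 10 libraries, which includes the difference between the groups, and was 0.968 for pHCl, a pH-sensitive chloride channel gene, and 0.952 for Or2. Or109 had an r of 0.945, Nrx-1, a presynaptic adhesion gene, 0.940, and Rep 0.940. Among all 9015 genes compared these 5 ranked 8, 36, 56, 66 and 67 by r, and all 5 fell in orco_KO. After each group's mean was subtracted, r with SIFR was 0.589 for pHCl and between 0.124 and 0.275 for the other 4, so that most of the likeness was the shared difference between groups. pHCl averaged 319 ± 50.3 CPM in orco_KO and 895 ± 122 CPM in controls (SD, n = 5 each), 2.81-fold lower. Its count, like that of SIFR, leaves out reads shared with a gene on the same strand.

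For Crzr, the closest of 332 genes with a symbol beyond an LOC number were Dsx, Mir263a, Dll, Nedd9 and Ip3k. Among all 9015 genes compared they ranked 2, 71, 118, 124 and 184 by r over the 10 libraries. Dsx, the sex determination gene doublesex, had an r of 0.938 over the 10 libraries and 0.900 after each group's mean was subtracted, and of 9015 genes compared 1 was closer to Crzr. Dsx held 390, 390, 421, 531 and 429 CPM in orco_KO replicates 3, 5, 9, 11 and 12, and 413, 367, 399, 281 and 292 CPM in control replicates 3, 4, 5, 6 and 7. Both Dsx and Crzr were thus highest in orco_KO replicate 11 and low in control replicates 6 and 7, and Dsx did not pass the test either (log2 fold change 0.30, edgeR adjusted p = 0.253). The other 4 had an r of 0.758 to 0.817 with Crzr, and 0.645 to 0.703 after the group means were subtracted. Mir263a, whose Drosophila relative protects sensory bristle cells from cell death, Dll, which patterns appendages, and Nedd9 did not pass the test. Ip3k, an inositol trisphosphate kinase gene, rose to 105 ± 8.91 CPM in orco_KO, against 77.9 ± 4.05 CPM in controls (SD, n = 5 each; log2 fold change 0.43, edgeR adjusted p = 0.0332), a call lost in 6 of 10 fits that left out 1 library. With both control replicates 6 and 7 left out its adjusted p was 0.0869, and with library totals in place of TMM 0.237.

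**Figure D5:**
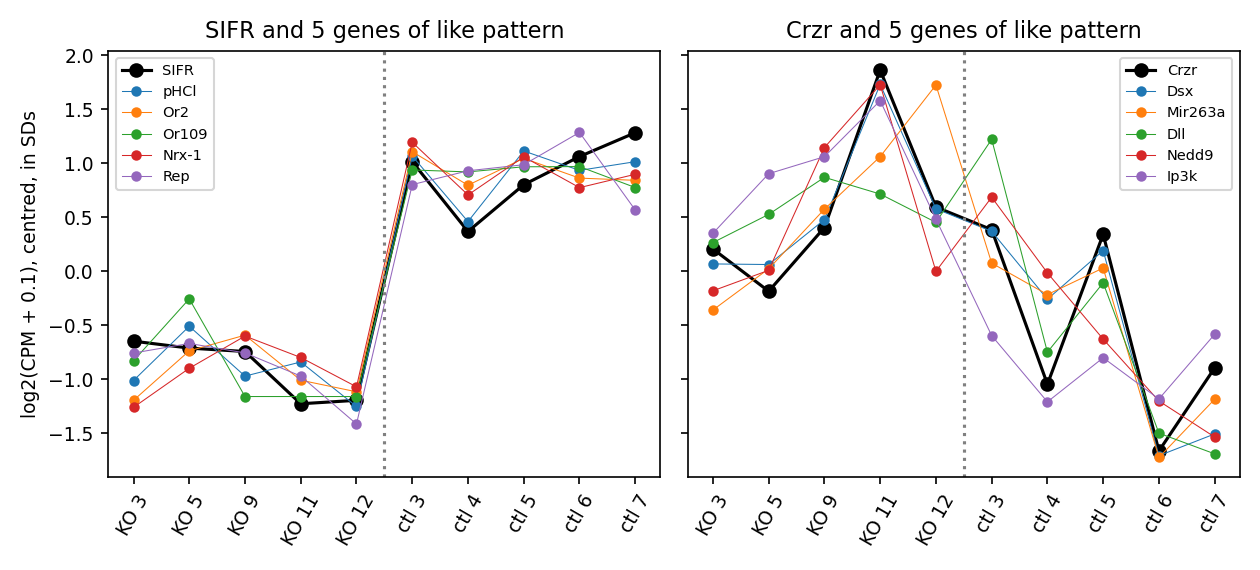
Log2(CPM + 0.1) of SIFR (left, black) and Crzr (right, black) with the 5 named genes most like each, centred and divided by the SD over the 10 libraries; thin lines only join the points of a gene, and the dotted line parts orco_KO (KO) from control (ctl). SIFR and its 5 genes separate the groups, while Crzr and Dsx share a peak in orco_KO replicate 11 and low values in control replicates 6 and 7. The genes were picked by their r over these 10 libraries, so a shared pattern follows from the choice.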

How the data were processed

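Each library came with a table of unnormalized gene counts made by the authors. The submitters' processing notes name STAR 2.7.3a and Subread 2.0.0; featureCounts was run over whole gene spans with strand setting 2, per the file headers. No option for multiply mapped or overlapping reads was set there, so a read shared by genes on 1 strand is dropped. Gene names came from the RefSeq table of Amel_HAv3.1 by exact coordinates (12331 of 12332 bee genes); 5 virus features were left out. The members and lists were chosen with earlier results of these data known.

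Counts were fitted in R 4.3.3 with edgeR 4.0.16 (filterByExpr, TMM, quasi-likelihood test, no covariate), adjusted by Benjamini-Hochberg over 9222 genes at a threshold of 0.05. SE was derived from the fold change and its F statistic. On simulated counts of this comparison with 9102 tested genes, 92.0% of genes changed 4-fold and 39.0% changed 2-fold were recovered. CPM of the members, their ratio and, with no p-value given, their ratios to neuron markers were tested by exact permutation over 252 splits (scipy 1.17.1). DESeq2 1.42.0 and limma 3.58.1 served as alternatives. Likeness used log2 CPM with a prior count of 2.

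Named were both members, Or2, genes overlapping or next to them, the tested peptide genes, up to 3 genes of each other list by p, and the 5 symbols most like each member whose mean log2 CPM was 0 or more. crh-BP, Apime-ASTA and the remaining peptide, amine, signalling and neuron genes were named with their values already seen. The labels name no batch beyond 1 shared sequencing lane.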

Additional observations from a re-analysis of the deposited data

Results flagged for a closer look

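Of 75 groups of 5 libraries checked for a single distant library, 7 had one, where chance gives about 1 in 20. All 7 were high values in orco_KO. Crzr was at 50.7 CPM in orco_KO replicate 11, and the next library was at 23.2 CPM. The same library stood apart for Dsx at 531 CPM, with 429 CPM next, and for Dop1 at 14.4 CPM, with 9.34 CPM next. Dsx had been picked for its likeness to Crzr over these same libraries. Its peak there follows from that choice and is not a separate sign. Replicate 5 stood apart for InR-2 at 461 CPM, Camkii at 1331 CPM and Oa1 at 17.0 CPM, with 363, 976 and 10.3 CPM next. Hex110, a storage protein gene of the fat body list, was at 15.4 CPM in replicate 3, with 3.71 CPM next.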

How the results depend on the processing

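SIFR was lower and called in all 19 alternatives, with log2 fold changes of -1.72 to -1.31 (adjusted p up to 3.8e-04), and between -1.65 and -1.46 when 1 library was left out. Crzr lay between 0.61 and 1.27 when 1 library was left out and was called in 1 of 19 alternatives, at 1.80 against control replicates 6 and 7 alone (adjusted p = 0.0165), a comparison chosen after seeing the data. There the SIFR to Crzr difference was -3.42 (two-sided exact permutation p = 0.0952, the smallest for 5 against 2). It was -2.79 to -2.21 with 1 library left out. Over all genes, 736 were lower and 421 higher. The lower count was 589 to 791 and the higher 250 to 684 with 1 library left out. Leaving out orco_KO replicate 3 or control replicate 6 gave 250 higher genes each, leaving out control replicate 7 gave 276, and leaving out control replicate 3 gave 684. The higher count was 755 by DESeq2, with 52.8% of calls lower in place of 63.6%, 200 without control replicates 6 and 7, and 1380 against these alone, where 2 peptide genes were higher, Crzr and InR-2. With 1 library left out 1 peptide gene was lower and 0 higher. The cause of these moves was not tested.

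Only replicates 3 and 5 occur in both groups, and the numbers are not said to pair libraries (deviations of same-numbered libraries correlated at 0.08 and 0.14). With the replicate block on these 4 libraries SIFR was at -1.31, Crzr at -0.27 (adjusted p = 0.806) and 2 peptide genes were lower, SIFR and Akhr. Also under the block, 5-ht7 was at -0.040, Dll at -0.0089, Dsx at -0.017, For at 0.037, InR-2 at -0.074, LOC408600 at 0.11, Mir263a at -0.047, Nedd9 at -0.0012 and Vg at -0.097, each of the other sign than with all libraries. The block also ended the calls of Argk (adjusted p = 0.155), Camkii (0.161), Rep (0.202), LOC413210 (0.152), Ip3k (0.583) and Blop (0.173). NPF was at 0.41 by limma-voom and 1.45 against control replicates 6 and 7 alone, where LOC412813 was at -0.052. Without control replicates 6 and 7, Vg was at -0.31 and InR-2 at -0.036. With 1 library left out, LOC408600 lay between -0.11 and 0.020 (above 0 without orco_KO replicate 11), NPF between -0.46 and 0.54 (above 0 without orco_KO replicate 9 or control replicate 3) and Vg between -0.037 and 1.18 (below 0 without orco_KO replicate 5).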
